A study of Mus musculus with 2 samples.

Results

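Semaphorins, plexins, neuropilins, ephrins and Eph receptors were examined on 2 arrays, 1 hybridised with RNA from mouse embryonic stem (ES) cells lacking Id1 (Id1 KO) and 1 with RNA from wild-type (WT) ES cells. Members were all probe sets (groups of short probes against a transcript) that the platform annotation assigned to exactly 1 symbol beginning with Sema, Plxn, Efna or Efnb, or to a numbered Epha or Ephb symbol, Nrp1 or Nrp2. The rule used names alone and found 81 of 22626 non-control probe sets, which represent 45 of 12393 genes. RefSeq lists 53 protein-coding genes that fit the same names, and the other 8 (Epha10, Ephb1, Ephb2, Plxna4, Plxnb1, Sema3d, Sema3g and Sema4c) were not analysed here. Both cultures were kept on gelatin with serum and leukaemia inhibitory factor (LIF), which holds mouse ES cells in self-renewal. The labels name no parental line, clone, passage or Id1 allele. There was no replicate of either genotype, so no difference between genotypes was tested and no p-value is given, and clone, culture and array cannot be told apart from genotype.

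These families are the classical cell-to-cell guidance cues of the nervous system and the vasculature. Semaphorins are secreted or membrane-bound ligands, plexins are their signalling receptors, and neuropilins are co-receptors that let most class 3 semaphorins bind A-class plexins. Ephrins are ligands that stay attached to the cell surface, A-class ephrins by a lipid anchor and B-class ephrins by a transmembrane segment, and they activate Eph receptor tyrosine kinases on a touching cell while B-class ephrins also signal back into their own cell. Id1 encodes a helix-loop-helix protein that sequesters E proteins, the factors that bind E-box letters in DNA.

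Id1 itself read 461 in knockout against 1045 in wild-type cells, 2.30-fold lower, so its signal was lower but not absent. The deleted part of Id1 is not given in the labels, so this probe set checks them only in part. All 9 ES cell markers passed the brightness filter on both arrays, and Nanog, at 2195 against 5423, was the 1 among them past 2-fold. Intensities below are the deposited linear values. The filter asked for a value at or above the array median on at least 1 array (155 in knockout, 152 in wild-type cells). Differences are on the log2 scale, knockout minus wild type, after each array was centred on its median, and values under a floor (48.4 in knockout, 47.6 in wild-type cells) were set to it, so a fold against the floor is a lower bound.

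Most guidance genes gave little signal in either culture. Of the 81 probe sets 22, or 27.2%, passed the filter, against 55.0% of all probe sets with 1 symbol, and 27 lay at the floor on both arrays. The 22 probe sets belonged to 17 genes. Of the 22, 6 were higher in the knockout by 2-fold or more, 1 was lower by as much and 15 were within 2-fold. Among the 11205 probe sets of all genes that passed, 4.2% were higher by 2-fold or more and 3.88% were lower. The 6 higher probe sets came from only 3 genes, Sema3e, Efnb2 and Epha1, and probe sets of 1 gene share their target. All 6 passed the filter through the knockout array alone, and a probe set that passes in that way tends to differ by construction, so the count is a description. The lower probe set, of Sema6c, passed through the wild-type array alone. Among dim probe sets, whose brighter value was 1 to 2 times the array median, 6.06% of all were 2-fold higher, and 16 of the 22 member probe sets fell in that range, 5 of them 2-fold higher.

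**Figure D1:**
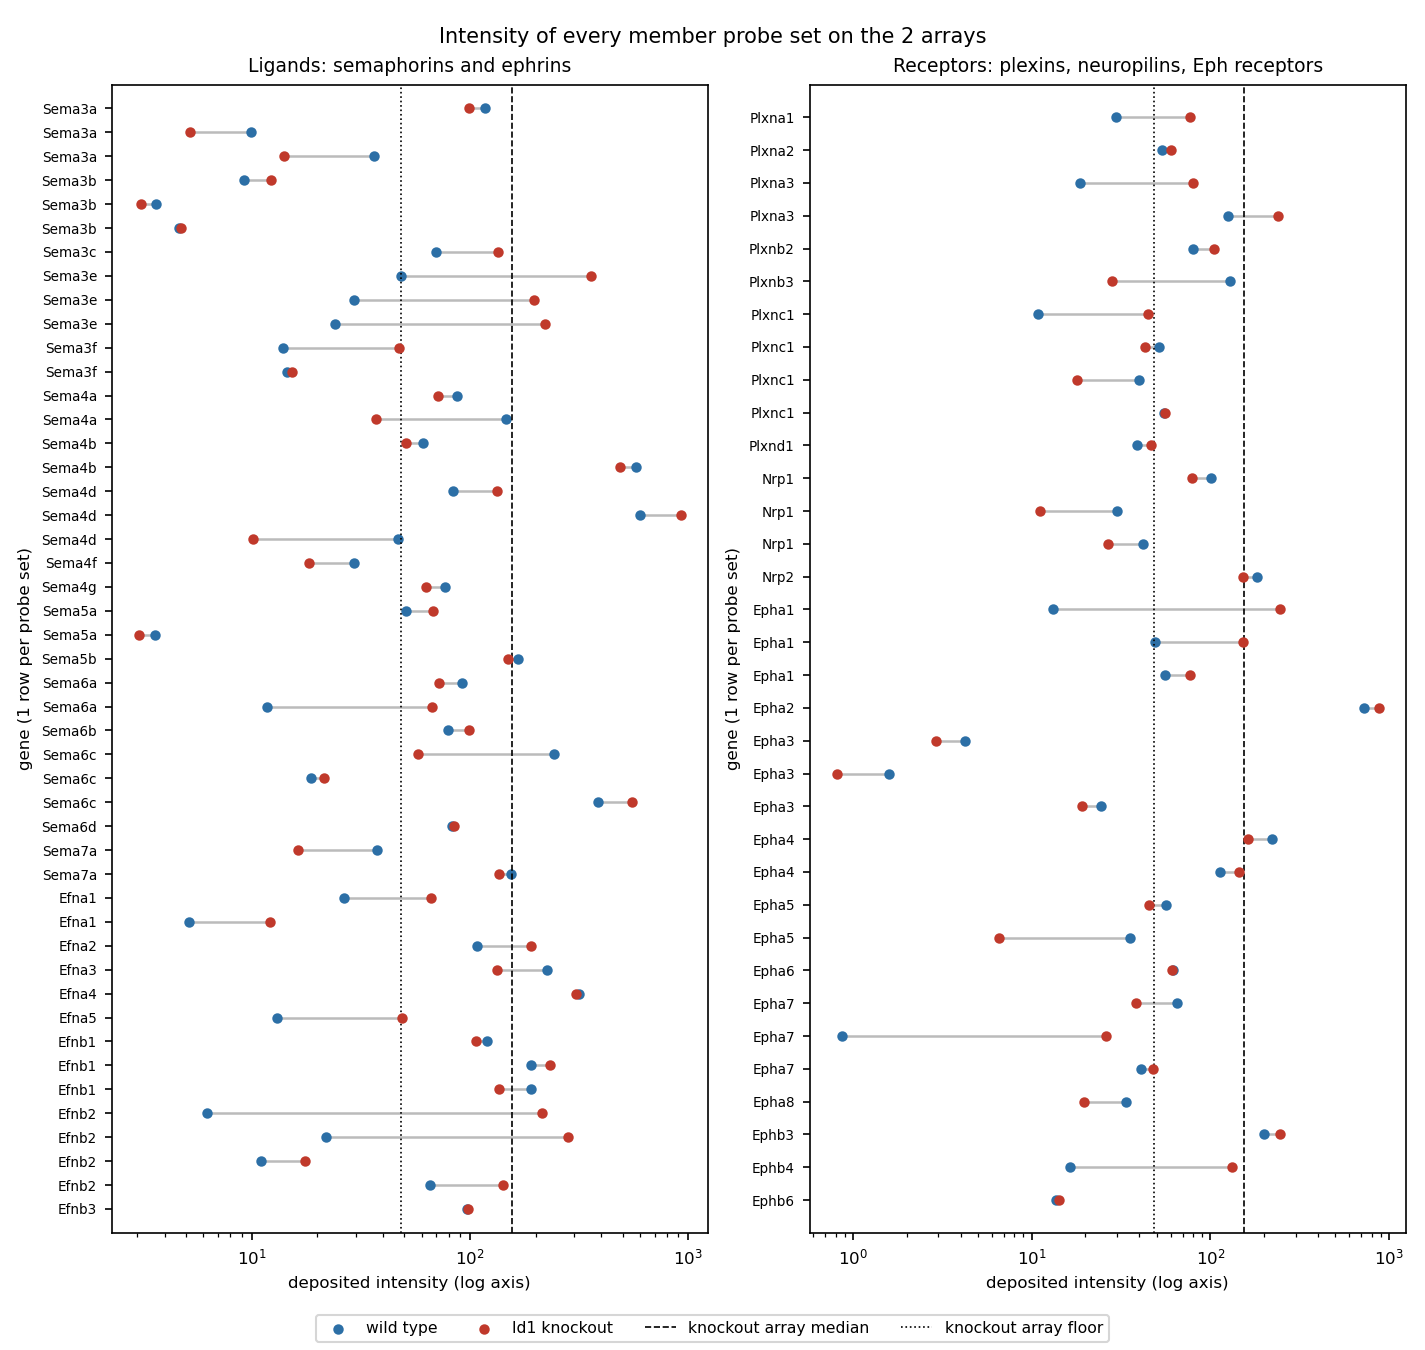
Deposited intensity (horizontal log axis) of each of the 81 member probe sets, 1 row each, in the knockout (red) and the wild type (blue), with ligands on the left and receptors on the right. For Sema3e, Efnb2, Epha1 and Ephb4, the row of highest knockout value runs from around or under the floor (dotted, 48.4) in the wild type. In the knockout it reaches near or beyond the median (dashed, 155).

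Counted by gene, with each gene represented by its probe set of highest mean log2 value, 15 of 45 genes passed. Sema3e alone (1 gene) was higher by 2-fold or more, the count of genes lower by as much was 0, and 14 were within 2-fold. The same share over all 7369 genes past the filter was 3.92% in each direction. That rule picks for Efnb2 and Epha1 a probe set just under the filter. A setting chosen after seeing the data used the probe set of highest value on either array instead. There 3 of 17 genes were 2-fold higher, beside 310 of 7386 of all genes. All 3 passed through the knockout array alone, so this count too is a description. Sema3e, Plxna3 and Efna2 passed through the knockout array alone, and Efna3, Nrp2, Sema5b and Sema7a through the wild-type array alone. Passing in that way fixes the side of 0 for those genes. The median difference of the 15 genes was 0.24, against -0.01 for all genes, with 8 above 0 and 7 below. The sign of that median was not stable, since it was -0.058 with sex-linked genes left out and -0.18 with only probe sets whose names lack _s_, _x_ or _a_ (the marks of probe sets that match several transcripts).

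**Figure D2:**
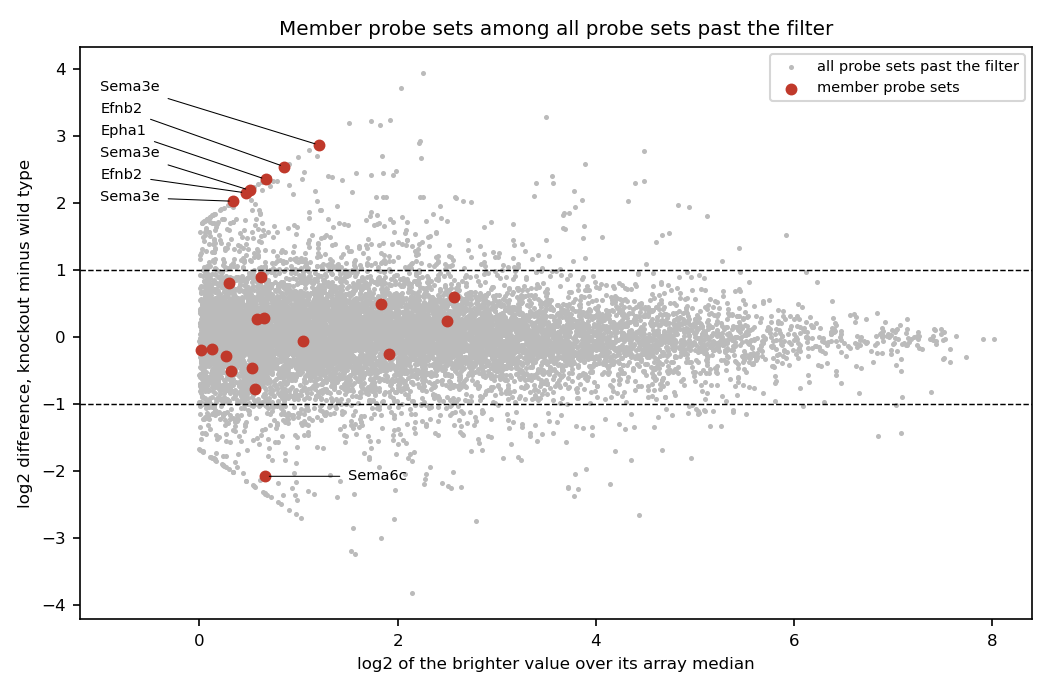
Log2 difference, knockout minus wild type (vertical), against log2 of the brighter value over its array median (horizontal) for the 22 member probe sets (red) and all 11205 probe sets past the filter (grey). Dashed lines mark 2-fold, and the 6 named points above the upper line lie at or near the diagonal edge that the floor sets for dim probe sets.

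Among the secreted class 3 semaphorins, Sema3e was the 1 gene past 2-fold, and its brightest probe set had the largest difference of any member with both values above the floor. Sema3e is a ligand of plexin D1 that can act without a neuropilin and is known for steering vessels and axons. Its probe set 1419717_at read 358 in knockout and 48.4 in wild-type cells, a 7.27-fold difference. A second, 1427673_a_at, read 220 against 24.1, which is at least 4.55-fold, and 1425906_a_at read 197 against 29.3, at least 4.06-fold. All 3 probe sets were thus above the array median in the knockout and at or close to the floor in the wild type. The remaining class 3 genes did not pass the filter. Sema3c read 134 against 69.7 (log2 difference 0.92) and Sema3a, a repellent for axons, read 99.3 against 118 by its brightest probe set, while every probe set of Sema3b and Sema3f was at the floor on both arrays. Sema3a lies near Sema3e on chromosome 5, with 3 protein-coding genes between them in RefSeq, and was -0.27.

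The membrane semaphorins held 12 genes, of which 5 passed. Sema4d, a transmembrane ligand of B-class plexins also known from lymphocytes, read 922 in knockout and 602 in wild-type cells (0.59), and its next probe set, below the filter, gave 0.64. Sema4b read 487 against 576, a difference of -0.26. Sema5b, whose class carries thrombospondin repeats, read 149 against 166 (-0.18), and Sema7a, which is held by a lipid anchor, read 136 against 154 (-0.20). These 4 genes differed by less than 2-fold.

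Sema6c, a transmembrane class 6 semaphorin, gave opposite answers from its probe sets. The brightest, 1451898_a_at, read 551 in knockout and 387 in wild-type cells (0.49), whereas 1423454_a_at read 57.9 against 241.5, 4.24-fold lower in the knockout. The third probe set was at the floor on both arrays. No direction can be given for the gene as a whole, and whether the probe sets read different transcripts was not tested. Sema4a also had 1 discrepant probe set. It read 37.1 against 146.5 by 1448110_at, at least 3.08-fold lower but under the filter, and 71.3 against 87.3 by the other. Below the filter, the other membrane semaphorins, Sema4f, Sema4g, Sema5a, Sema6a, Sema6b and Sema6d, had no probe set 2-fold apart after the floor.

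Plexins and neuropilins, the receptor side, were dim. Of 7 plexin genes only Plxna3, an A-class receptor for secreted semaphorins, passed the filter, at 238 in knockout and 126 in wild-type cells (0.89), with its other probe set at 80.1 against 18.6 (0.73, a bound). Plxna3 passed through the knockout array alone, and passing in that way favours a difference above 0. It is X-linked, and the 238 X-linked genes past the filter had a median difference of -0.55, on the other side of 0. Of the other X-linked members, Efnb1 had probe sets past the filter on both sides of 0 (0.26 and -0.51). Plxnb3, with its knockout value at the floor, was on the same side of 0 as the X-linked median. It read 28.2 against 129.6, at least 2.72-fold lower, and was below the filter. Plxnd1, the receptor of Sema3e, read 46.3 in knockout and 38.7 in wild-type cells, at the floor on both arrays. The Plxnd1 probe set thus gave no signal above the floor on the array where that of its ligand was high. Plxna1 (77.3 against 29.7), Plxna2 (59.97 against 53.8), Plxnb2 (105 against 79.9) and the 4 probe sets of Plxnc1 (18.0 to 55.9 in the knockout, 10.8 to 55.3 in the wild type) were below the filter. Nrp2 passed through the wild-type array with 152 against 183 (-0.29), and Nrp1 read 78.5 against 101 by its brightest probe set.

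Among A-class ephrins no gene passed 2-fold. Efna2 read 191 in knockout and 107 in wild-type cells (0.81), Efna3 read 133 against 224 (-0.78), and Efna4 read 307 against 315 (-0.06). Efna1, Efna3 and Efna4 are neighbours on chromosome 3 in RefSeq, and they did not share a direction. Efna1 had 66.1 against 26.4 by its brighter probe set, under the filter (0.45, a bound), and Efna5 read 49.1 against 13.1, close to the floor.

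The B-class ephrin Efnb2 is a transmembrane ligand that marks arterial endothelium and is best known as the partner of EphB4. Its probe set 1419639_at read 281 in knockout and 21.99 in wild-type cells, at least 5.81-fold higher. For 1419638_at the readings were 214 and 6.22, at least 4.43-fold. The third, 1449549_at, read 141 against 65.9 (2.10-fold) and was under the filter, and the fourth was at the floor on both arrays. Thus 3 of 4 Efnb2 probe sets were higher in the knockout and none was lower. Efnb1, an X-linked ephrin, had 232 against 191 (0.26) by one probe set and 136 against 191 (-0.51) by another, so it had no common direction. Efnb3 read 97.5 against 97.0 and did not pass the filter.

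Epha1 was the 1 Eph receptor with a probe set past both the filter and 2-fold. It is an A-class receptor found mostly in epithelia. Its probe set 1422917_at read 246.5 in knockout and 13.2 in wild-type cells, at least 5.09-fold higher. The next, 1432399_a_at, read 152 against 48.8 (3.06-fold) and lay just under the filter, and 1432400_at read 77.4 against 55.5 (0.46). All 3 probe sets were higher in the knockout, by very different amounts. Ephb4, the receptor of ephrin-B2, had a single probe set at 132 in knockout and 16.4 in wild-type cells. That is at least 2.72-fold higher, but its knockout value was below the array median, so Ephb4 was not counted.

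The other Eph receptors were close to each other on the arrays or dim. Epha2, a receptor with clear signal in both cultures, read 875 in knockout and 729 in wild-type cells (0.24). Ephb3 read 244 against 199 (0.27). Epha4, which binds ephrins of either class, read 162 against 221 (-0.47) by one probe set and 145 against 113 (0.34) by the other. Epha5, Epha6 and Epha7 were below the filter, and all probe sets of Epha3, Epha8 and Ephb6 were at the floor on both arrays.

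**Figure D3:**
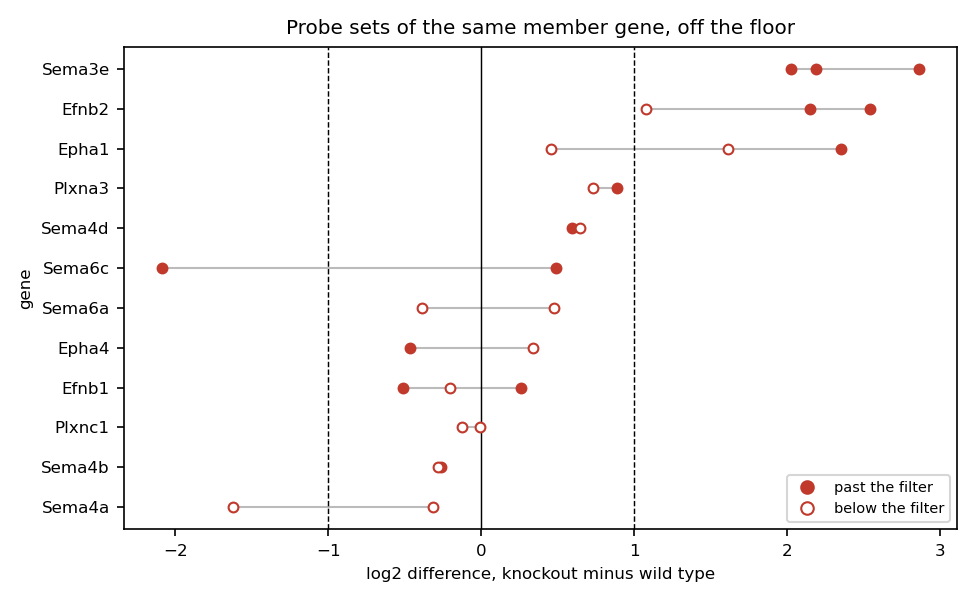
Log2 difference, knockout minus wild type (horizontal), of the probe sets off the floor on at least 1 array, for the 12 member genes with at least 2 of them; filled points passed the brightness filter, open points did not, and dashed lines mark 2-fold. Sema3e, Efnb2 and Epha1 have all plotted points to the right of 0, whereas Sema6c spans -2.08 to 0.49.

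Probe sets of the same gene gave the available technical check. Probe sets at the floor on both arrays have no direction and were left out here. A probe set at the floor on 1 array alone can only differ toward the other array, so such agreement or disagreement is partly set by the floor. Probe sets of Sema3e, Efnb2, Epha1, Plxna3 and Sema6a were at the floor in the wild type alone. Probe sets of Sema4a and Plxnc1 were at the floor in the knockout alone. Of the 12 genes with at least 2 probe sets off the floor, all of those probe sets were higher in the knockout for 5 (Sema3e, Efnb2, Epha1, Plxna3 and Sema4d), all of them were lower for 3 (Sema4a, Sema4b and Plxnc1) and they disagreed for 4 (Sema6c, Sema6a, Epha4 and Efnb1). The Plxnc1 differences were only -0.008 and -0.12 (a bound), both below the filter, so they give that gene no clear direction. As a yardstick, 2567 genes of the array had several passing probe sets, and the median SD among the log2 differences of 1 gene was 0.22. That SD used passing probe sets only, whereas many of the member probe sets counted above were below the filter, so the comparison is not like for like. Probe sets share the RNA sample and array, so they say nothing about the spread between cultures.

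Sema3e, Efnb2, Epha1 and Ephb4 were the 4 genes with a probe set at least 2-fold higher in the knockout, with or without the filter. The 250 bases before their RefSeq start sites (build GRCm38.p6) are shown because Id1 acts on factors that bind E-boxes. The sequences run 5′ to 3′ on the strand of the gene, and capitals mark each match to the E-box letters CANNTG, a pattern that reads the same on both strands. Sema3e is at chr5:14025026-14025275 on the plus strand, Efnb2 at chr8:8661243-8661492 on the minus strand, Epha1 at chr6:42373269-42373518 on the minus strand and Ephb4 at chr5:137349859-137350108 on the plus strand.
Sema3e: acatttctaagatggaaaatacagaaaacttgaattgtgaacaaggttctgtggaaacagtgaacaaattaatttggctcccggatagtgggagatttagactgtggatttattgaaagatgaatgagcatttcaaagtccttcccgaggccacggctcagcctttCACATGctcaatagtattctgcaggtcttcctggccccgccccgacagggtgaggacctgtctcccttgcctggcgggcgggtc
Efnb2: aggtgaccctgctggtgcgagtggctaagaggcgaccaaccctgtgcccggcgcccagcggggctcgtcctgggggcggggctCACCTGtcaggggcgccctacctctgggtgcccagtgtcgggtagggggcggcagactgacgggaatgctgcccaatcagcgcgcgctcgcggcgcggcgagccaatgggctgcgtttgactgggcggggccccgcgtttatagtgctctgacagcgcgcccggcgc
Epha1: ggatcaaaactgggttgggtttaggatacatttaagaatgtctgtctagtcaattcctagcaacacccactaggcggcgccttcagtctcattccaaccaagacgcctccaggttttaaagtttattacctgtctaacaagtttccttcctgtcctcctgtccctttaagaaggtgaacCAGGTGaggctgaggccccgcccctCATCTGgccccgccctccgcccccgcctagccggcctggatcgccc
Ephb4: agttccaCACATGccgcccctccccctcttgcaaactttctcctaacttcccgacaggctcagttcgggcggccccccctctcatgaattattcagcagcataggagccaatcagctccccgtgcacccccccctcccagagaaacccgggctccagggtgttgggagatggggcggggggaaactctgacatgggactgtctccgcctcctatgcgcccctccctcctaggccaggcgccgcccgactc

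Each of the 4 stretches held at least 1 E-box match. Sema3e had CACATG beginning 84 bases before the start, Ephb4 had CACATG at 243, Efnb2 had CACCTG at 167, and Epha1 had CAGGTG at 71 and CATCTG at 46. CACCTG and its complement CAGGTG are the form that Zeb1 and Snail factors bind. Such matches are common, since 66.2% of all 32851 stretches of this length in the table held CANNTG, 17.2% held CAGGTG or CACCTG and 13.0% held CAGCTG. Of the 53 stretches of the 40 member genes found in the table, 24 (45.3%), 5 (9.43%) and 7 (13.2%) did. The stretches also differed in base composition, from 48% G and C with 7 CG pairs for Sema3e to 72% with 27 CG pairs for Efnb2. Zeb1 read 79.6 in knockout and 208 in wild-type cells, 2.66-fold lower, and passed the filter through the wild-type array alone. Tcf3 (-0.12), Tcf4 (0.08) and Tcf12 (0.52), which encode E proteins, were within 2-fold. Each of these 4 genes is given by its brightest probe set. The matches are letters in a window and say nothing about binding in these cells.

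Downstream of the receptors, most genes of the signalling lists were expressed and within 2-fold. Of 29 semaphorin and plexin effectors and co-receptors past the filter, 2 were 2-fold higher, 1 was 2-fold lower and 26 were neither, with a median of 0.11, beside 3.92% of all genes in each direction and their median of -0.01. Trem2 passed the filter through the knockout array alone and Mras through the wild-type array alone, and with a stricter filter 1 gene was higher. Crmp1, a collapsin response mediator that links semaphorin signals to microtubules, read 699 in knockout and 284 in wild-type cells, 2.43-fold higher. Of its family, Dpysl3 (-0.80) and Dpysl4 (-0.83) were below 0 and Dpysl5 (0.50) was above 0, all past the filter and within 2-fold. Trem2, an immune receptor that partners with plexin A1 in myeloid cells, read 180 against 46.9, at least 3.73-fold, although its other probe set was at the floor on both arrays. Mras, a small GTPase of the R-Ras family on which plexins can act, was the lower gene, at 125 against 600 (4.88-fold). Its relatives Rras (0.47) and Rras2 (0.69) and the plexin-binding GTPase gene Rnd3 (0.79) were above 0 and short of 2-fold. Rnd2 was close to 0 (0.07).

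In the list of ephrin and Eph effectors 4 of 28 genes were 2-fold higher, 1 was 2-fold lower and 23 were neither, with a median of 0.24, again beside 3.92% of all genes in each direction. Anks1, Arhgef16 and Arhgef5 passed the filter through the knockout array alone. The count of 4 fell to 1 with a stricter filter (both values at or above the 25th percentile and the brighter at or above the 60th) and to 2 with only probe sets whose names lack _s_, _x_ or _a_. Anks1, an adaptor that binds Eph receptors, read 253 in knockout and 35.6 in wild-type cells, at least 5.23-fold higher. The guanine nucleotide exchange factors Arhgef16 and Arhgef5, of the ephexin family, read 217 against 20.2 (at least 4.49-fold) and 198 against 86.8 (2.24-fold). Nck1, an SH2 and SH3 adaptor, read 595 against 225 (2.60-fold), but its other probe set, below the filter, read 78.7 against 150 (-0.96). Yes1, a kinase of the Src family, read 371 against 822, 2.25-fold lower, and its second probe set gave -0.88. The higher genes here are adaptors and exchange factors that also act outside Eph signalling.

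**Figure D4:**
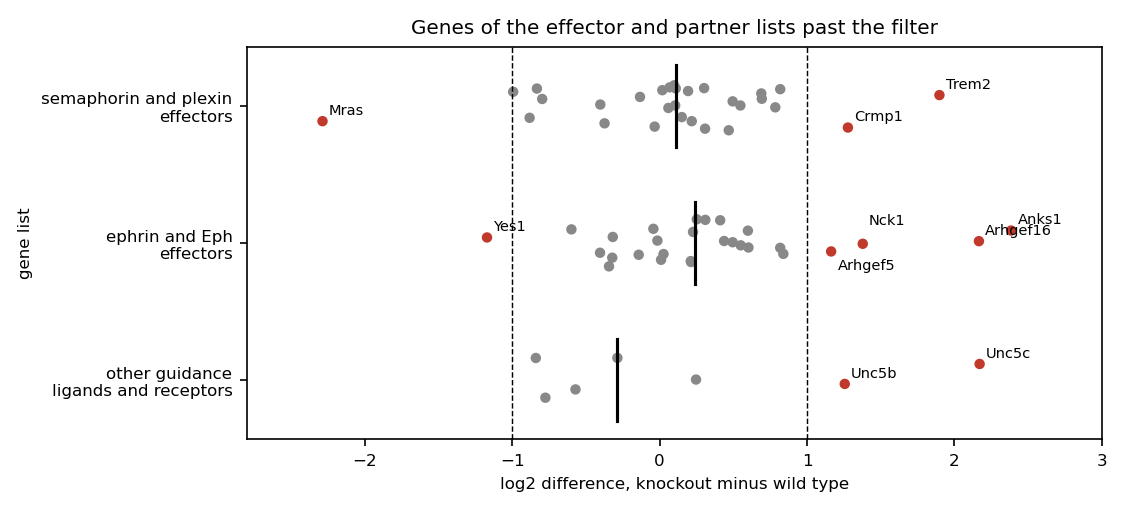
Log2 difference, knockout minus wild type (horizontal), of each gene past the filter in the 3 effector and partner lists (rows; vertical scatter has no meaning), with the list median as a black bar and genes past 2-fold (dashed lines) in red and named. Medians are 0.11, 0.24 and -0.29 from top to bottom.

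Other guidance ligands and receptors were mostly dim too. Of 22 such genes on the array 7 passed the filter, 2 of them 2-fold higher, none lower and 5 neither, with a median of -0.29, beside 3.92% of all genes in each direction. Both higher genes passed through the knockout array alone, and 1 was left under the stricter filter and with the mean of all probe sets. Both higher genes were netrin receptors. Unc5b read 355 in knockout and 146 in wild-type cells (2.39-fold), and Unc5c read 218 against 33.7 (at least 4.51-fold) by its brightest probe set but 35.7 against 98.9 by the other, which was under the filter and at least 2.08-fold in the opposite direction. The netrin gene Ntn1 (-0.78) and its receptor gene Dcc (-0.29) were below 0 and within 2-fold, so no common direction held across the netrin genes. Another netrin receptor gene, Neo1, was below the filter and read 31.6 against 141, at least 2.97-fold lower.

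Levels here are averages over a culture, in which more cells of a type and more RNA per cell cannot be told apart. Sema3e, Efnb2 and Ephb4 are also genes of the vasculature. Of 6 endothelial markers 1 passed the filter, Tek, at 170 in knockout and 129 in wild-type cells. None was 2-fold apart after the floor, and their summed intensity was 495 in knockout and 529 in wild-type cells. Kdr read 153 against 152 and Flt1 read 115 against 104. Cdh5 (44.8 against 83.7), Emcn (9.1 against 56.7) and Tie1 (2.62 against 3.32) had knockout values at the floor. Of 7 neural markers on the array 3 passed and none was 2-fold apart. The sum over the 7 was 4822 against 7500 and was mostly Stmn2 (3648 against 6531). Stmn2 (-0.86), Dcx (-0.36) and Tubb3 (-0.27) were below 0. Neurod1 (0.69), Sox1 (0.49, a bound), Pax6 (0.34) and Map2 (0.29) were above 0, and of these only Neurod1 passed. Of 8 feeder fibroblast markers 3 passed, with a sum of 1384 against 959. Fstl1, at 662 against 240, was 2-fold higher and made most of the gap between the sums. Col1a1 (0.65), Dcn (0.57, a bound), Lum (0.16) and Col1a2 (0.01) were above 0. Thy1 (-0.54) and Col3a1 (-0.54, a bound) were below 0, and Postn was at the floor on both arrays. None of 6 endoderm markers passed (summed 465 against 640), and 2 of 5 trophoblast markers did (817 against 1028), with no call at 2-fold in either list. The endoderm marker Afp, under the filter, read 34.9 against 110.7, at least 2.33-fold lower. The part of such cells in the results above was not tested.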

How the data were processed

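Total RNA was isolated with RNeasy columns and biotin-labelled, per the labels' protocols. The authors deposited 1 intensity, on a linear scale, for each probe set of each array. The software that made them is not given in the sources used here, and no detection calls or scanner files were used. Both arrays had a trimmed mean of 500.2 (2% removed from each end), so they had been scaled alike before deposit. Of 22626 non-control probe sets, 20380 had 1 symbol in the platform annotation of 2016, 691 several and 1555 none.

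Intensities were converted to log2 and centred on each array's median (a shift of 0.02). A floor was set at the 25th percentile, a filter at the 50th, and a call at 2-fold. Members past the filter are given with both intensities, and list members where past 2-fold. Rras, Rras2, Rnd2, Rnd3, Dpysl3, Dpysl4, Dpysl5, Neo1, Ntn1 and Dcc were named after their values were seen. Members and lists were chosen with earlier results of these data known. Promoter sequences and gene order are from RefSeq GRCm38.p6. The calling step was checked on simulated arrays with known changes, put only into genes whose wild-type value was above the array median. That check does not cover calls with a wild-type value near the floor, such as those of Sema3e, Efnb2 and Epha1. Processing used Python 3.11.15 and pandas 2.3.3. Alternatives covered normalization, floor, filter, choice of probe set and the sex chromosomes. The number of arrays limits the precision.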

Additional observations from a re-analysis of the deposited data

How the results depend on the processing

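No paired analysis was possible because there was 1 array per genotype, and for the same reason no replicate could be left out. Normalization (quantile, loess or none), both other floors and the log2 of intensity plus 32 kept every member count within 1.5 times. Without the filter, member genes 2-fold higher numbered 4 and lower 1 of 45, with a median of 0, lower member probe sets numbered 3, and all genes numbered 435 higher and 443 lower. In that setting the other guidance list had 1 gene (Neo1) lower and a median of 0. With the stricter filter, which needs both values at or above the 25th percentile and the brighter at or above the 60th, 1 member probe set (Sema3e) was 2-fold higher, and each of the 3 lists had 1 gene higher. Fewer probe sets enter by construction. With the probe set of highest value on either array, chosen after seeing the data, 3 of 17 member genes were higher. At that setting 310 of 7386 of all genes were higher. The median of member genes was -0.064 with the mean of all probe sets, -0.18 with only probe sets whose names lack _s_, _x_ or _a_ and -0.058 without X and Y genes. With only probe sets whose names lack those marks, no semaphorin effector and no Eph effector was lower and 2 Eph effectors were higher. With the mean of all probe sets, 1 gene of the other guidance list was higher. Of the named probe sets, 5 lost their call under the stricter filter and 5 gained one without the filter, and none reversed. Over these settings the log2 difference ran from 2.26 to 2.89 for Sema3e (1419717_at), 2.52 to 3.65 for Efnb2 (1419639_at), 2.34 to 4.20 for Epha1 (1422917_at) and -2.08 to -1.63 for Sema6c (1423454_a_at). Signals near the floor limit the size of these folds.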
